A study of Arabidopsis thaliana with 12 samples.

Results

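The AI set is the pair of wild-type and the pair of amiR-SEAP1 mRNA libraries whose value columns carry "AI" in their names, titled replicates 3 and 4 of each genotype. It holds 4 of the 12 libraries of the study and 4 of its 8 mRNA libraries. The plants were Arabidopsis thaliana of the Columbia (Col) accession, untreated and grown with 16 h of light and 8 h of dark at 22 °C, and RNA came from flower inflorescences. Wild-type plants (WT Col) were compared with plants of the genotype amiRSEAP1, which carry an artificial miRNA, an engineered small RNA that directs the silencing of a chosen transcript, here SEAP1. The labels give neither the promoter that drives the artificial miRNA, nor the number of lines or plants, nor the hour of harvest. They do not explain the names AI and FLW, the latter being the name of the other set (replicates 1 and 2 of each genotype, 4 libraries). Of the 33610 gene IDs in each library, 20568 had a mean of at least 1 FPKM (fragments mapped to a gene, scaled by transcript length and by library size) over the 4 AI libraries, and the comparison covers these.

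Several well-studied programmes of the inflorescence meet in these values. Plant miRNAs are cut from longer primary transcripts in the nucleus by the RNase III enzyme DCL1 with its partners HYL1 and SERRATE, and then guide ARGONAUTE1 to matching mRNAs. The circadian clock is a loop in which morning genes (CCA1, LHY) and evening genes (TOC1, the PRR genes, GI, ELF4) repress each other, and it times starch breakdown, cold-response genes and flowering signals over the day. Flowers of an inflorescence are of graded age: the tapetum, the inner layer of the anther, is active in young buds, whereas scent terpenes, nectar and the pigments of the seed coat belong to open flowers and young fruits. Stressed mitochondria signal to the nucleus through NAC transcription factors that switch on alternative oxidase and other genes.

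The libraries of a pair lay very close together. Between the libraries of a genotype the coefficient of variation was 11.5% (wild type) and 12.03% (amiR-SEAP1) for genes at 1 to 3 FPKM and 1.43% and 1.78% at 300 FPKM or more. Between the AI and FLW sets of one genotype it ran from 12.3% to 26.7%, depending on level. No label says that the libraries of a pair came from separate plants or harvests, so each pair counted as 1 sample, and the genotype differences below have no replicate check and no test. FPKM summed to 715611 and 714873 in wild type and to 692082 and 695299 in amiR-SEAP1. All 8 markers of the labelled tissue passed the filter on low values, and they summed to between 910.9 and 957.2 FPKM. AP3, which specifies petals and stamens, had means of 169 FPKM in wild type and 157 in amiR-SEAP1. Of 14 seed and embryo markers 2 passed, and storage protein genes such as CRU2 were at or near 0. Of 7 root markers 3 passed, and RHD6 was at 0 in both genotypes.

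Differences are given as amiR-SEAP1 minus wild type in mean log2(FPKM + 1), a scale that understates the change of low genes. A gene is counted as higher or lower when the difference was at least 1.5-fold on this scale and the libraries of the genotypes did not overlap. By this rule 1137 genes (5.53%) were higher and 1429 (6.95%) were lower in amiR-SEAP1 (12.5% in all), and at least 2-fold 231 (1.12%) were higher and 469 (2.28%) lower. The large decreases reached further than the large increases: the 1st percentile of all differences was -1.41 and the 99th was 1.04, around a median of 0.06. In the FLW set, which has its own wild-type libraries, 1.87% of the same genes were higher and 3.12% lower by the same rule.

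The increases recurred in the FLW set more often than these overall shares, as did the decreases. Of the 1137 genes higher in the AI set, 202 (17.8%) were also higher in the FLW set and 54 (4.75%) were lower there. Of the 1429 lower genes, 192 (13.4%) were also lower and 35 (2.45%) were higher. Among the 231 increases of at least 2-fold, 73 (31.6%) were also at least 1.5-fold higher in the FLW set, against 68 (14.5%) of the 469 decreases. Whether the sets differ was not tested, since each holds 1 sample per genotype. The 15 largest increases divided evenly, with 7 genes also higher in the FLW set, 7 under 1.5-fold there and 1 lower. Of the 15 largest decreases, 1 was also lower in the FLW set, 12 were under 1.5-fold and 2 were higher. The last gene inside each group was AT2G21640 (2.15) and PRR5 (-3.10), and the first outside was ABCG22 (2.1) and RbcX1 (-2.96).

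**Figure D1:**
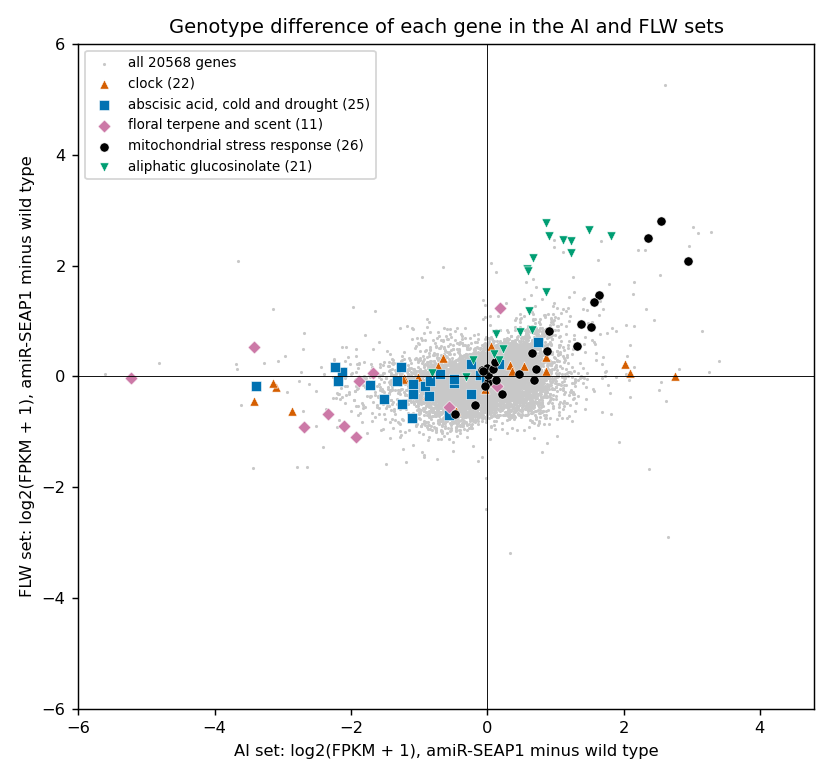
Genotype difference in log2(FPKM + 1) of each of the 20568 genes in the AI set (horizontal axis) and in the FLW set (vertical axis), with the genes of 5 lists in colour. The mitochondrial stress gene AOX1A (1.64 and 1.47) and the glucosinolate gene MAM1 (1.82 and 2.53) lie away from 0 on both axes. The clock gene LHY (2.76 and 0.02) and the cold gene COR15B (-3.39 and -0.17) lie along the horizontal axis. The mitochondrial list had a median of 0.56 in the AI set and 0.14 in the FLW set, and the aliphatic glucosinolate list 0.61 and 1.53.

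EMB140 (AT4G24270), an essential gene of embryo development, was lower in amiR-SEAP1. Its values were 15.5 and 14.9 FPKM in the wild-type AI libraries and 4.65 and 4.91 FPKM in the amiR-SEAP1 AI libraries, a difference of -1.48. The FLW libraries repeated these levels closely, with 15.7 and 16.2 FPKM in wild type and 4.76 and 4.55 FPKM in amiR-SEAP1. No symbol or synonym of the reference matched SEAP1, and the sources used here pair no gene ID with it, so the targeted transcript was not checked under that name.

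Genes that respond to disturbed mitochondria were higher in amiR-SEAP1. Of the 26 tested genes of this list, 13 were higher (against 5.53% of all genes) and 0 were lower, with a median difference of 0.56 (0.06 over all genes). That median was 0.336 without amiR-SEAP1 replicate 3 and 0.348 without replicate 4. In each case the minimum mean of 1 FPKM was applied anew to the libraries left, so the genes behind these medians could differ. Their summed level was 251.5 and 253.6 FPKM in wild type and 430.5 and 424.6 FPKM in amiR-SEAP1. The members of this list, like those of the other lists, were chosen with earlier results of these data known. Its share of higher genes is therefore not independent of these values, and whether it differs from that of all genes was not tested. AOX1A, the alternative oxidase that passes electrons to oxygen outside the cytochrome chain, stood at 15.4 and 16.3 FPKM in wild type and at 50.6 and 51.9 FPKM in amiR-SEAP1. NAC13 (also written ANAC013), a membrane-released transcription factor that switches on such genes, stood at 7.76 and 8.06 FPKM against 23.2 and 21.0 FPKM, a difference of 1.37. In both genes the genotypes were clearly apart and the FLW differences were of like size (1.47 for AOX1A and 0.95 for NAC13).

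The steepest members of that list were genes of low level in wild type. AT2G18193 lay at 3.14 and 2.82 FPKM in wild type and at 30.5 and 28.6 FPKM in amiR-SEAP1 (difference 2.94, FLW 2.08). AT4G05380 lay at 0.963 and 0.958 FPKM in wild type and at 10.8 and 10.1 FPKM in amiR-SEAP1 (2.54, FLW 2.81), and its neighbour AT4G05370 differed by 2.35 (FLW 2.49). CRF6, a cytokinin response factor, differed by 1.57, from 11.2 in both wild-type libraries to 35.5 and 34.7 FPKM. Among the alternative NAD(P)H dehydrogenases, which bypass complex I, NDA1 (0.88) and NDB4 (0.91) were higher, whereas NDA2 (0.01), NDB1 (-0.08), NDB2 (-0.03) and NDB3 (-0.18) lay within 1.5-fold. NAC017, an upstream factor of the same signalling path, differed by 0.01. AT2G21640, outside the tested members of the list, stood at 7.08 and 5.66 FPKM against 31.8 and 31.2 FPKM (2.15, FLW 1.70).

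NAC044, a transcription factor of the arrest of the cell cycle after DNA damage, showed the widest relative gap of the cell cycle list. It lay at 0.302 and 0.215 FPKM in wild type and at 9.24 and 10.1 FPKM in amiR-SEAP1 (difference 3.09), and the FLW libraries showed the same (0.430 and 0.407 against 7.45 and 7.66 FPKM). It was the only one of the 41 tested genes of the cell cycle and replication list past 1.5-fold (2.44%, against 5.53% of all genes higher). The median of that list was 0.13. PARP2 (0.47), which acts in DNA repair, and MCM5 (0.44), a subunit of the replicative helicase, lay under the threshold.

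Genes for aliphatic glucosinolates, the methionine-derived defence compounds of the cabbage family, were higher in amiR-SEAP1 along most of the pathway. Of 21 tested genes 12 (57.1%, against 5.53% of all genes) were higher and 1 was lower. The median was 0.61, and the FLW median was larger at 1.53. MAM1, the synthase that lengthens the methionine chain, stood at 5.68 and 5.76 FPKM in wild type and at 22.7 FPKM in both amiR-SEAP1 libraries (difference 1.82, FLW 2.53). CYP79F1, which forms the aldoxime, stood at 2.57 and 2.23 FPKM against 8.41 and 8.66 FPKM (1.49, FLW 2.64). BAT5, a carrier of the chloroplast envelope, and IPMI2, a subunit of the isomerase of chain elongation, each differed by 1.23. For these 4 genes the genotypes were apart in both sets.

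The regulators and carriers of the same pathway did not all move with its enzymes. MYB29, an activator, was at 1.28 and 1.11 FPKM in wild type and at 2.65 and 2.32 FPKM in amiR-SEAP1 (0.67, FLW 2.13), whereas the related activator MYB28 differed by -0.21. GTR2, which loads glucosinolates into transport, was the 1 lower gene (36.7 and 36.8 against 20.5 and 20.3 FPKM, -0.82). CYP79F1 has a near-identical neighbour, CYP79F2, which did not pass the filter, so how reads were split between them is uncertain. Of 11 indolic glucosinolate genes, whose precursor is tryptophan, 4 (36.4%, against 5.53% of all genes) were higher: CYP79B3 (1.18), CYP79B2 (1.13), CYP83B1 (0.99) and GSTF9 (0.64). CYP83B1 stood at 20.2 and 19.9 FPKM in wild type and at 41.3 and 40.6 FPKM in amiR-SEAP1, and its FLW difference was 0.33.

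**Figure D2:**
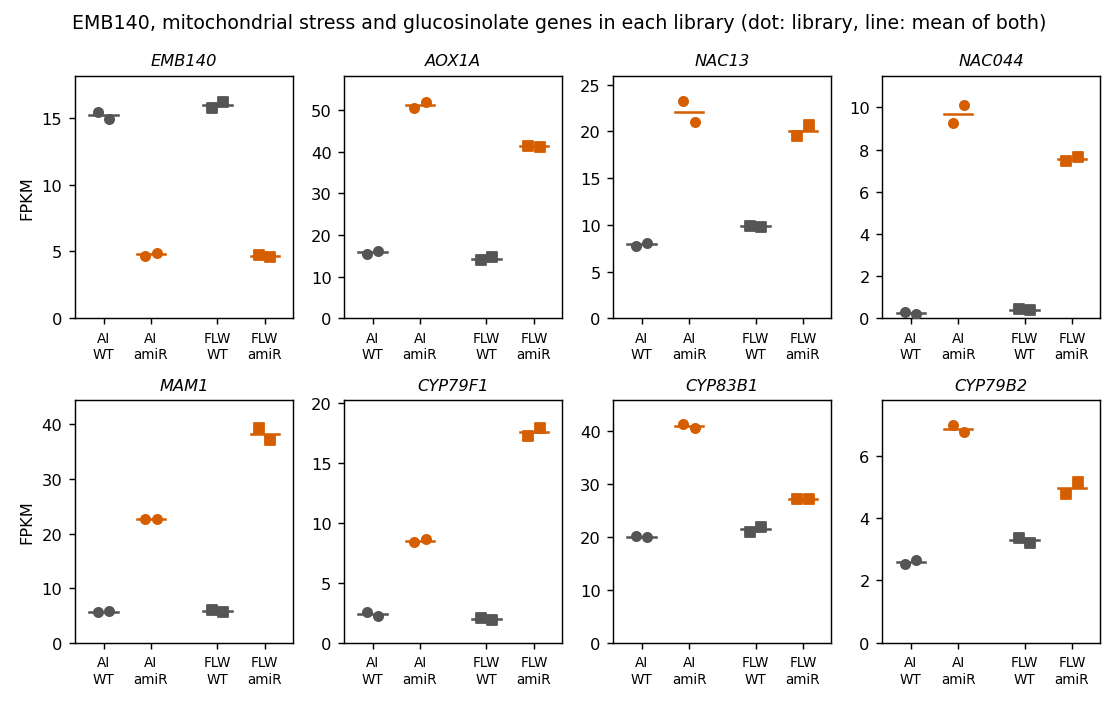
FPKM (vertical axes, from 0) of EMB140, AOX1A, NAC13, NAC044 and 4 glucosinolate genes in each of the 8 mRNA libraries; dots are libraries of the AI set, squares of the FLW set, lines the mean of the pair, with wild type in grey and amiR-SEAP1 in orange. EMB140 is low and AOX1A, NAC13, NAC044, MAM1 and CYP79F1 are high in all 4 amiR-SEAP1 libraries, while CYP79B2 differs by 1.13 in the AI set and 0.48 in the FLW set.

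Many clock and photoperiod genes differed strongly between the genotypes of the AI set. The morning genes LHY, CCA1 and RVE8 were higher and several afternoon and evening genes were lower in amiR-SEAP1. The list also holds photoperiod genes such as FT and FKF1, and its members PRR9, CDF1 and CDF3 were not among those counted as higher. Of 22 tested genes 5 (22.7%, against 5.53% of all genes) were higher and 10 (45.5%, against 6.95% of all genes) were lower. LHY, a morning repressor, was at 5.44 and 4.87 FPKM in wild type and at 39.4 and 41.7 FPKM in amiR-SEAP1 (difference 2.76). CCA1, its close relative, was at 12.7 and 13.1 FPKM against 58.8 and 57.4 FPKM (2.09). RVE8, an activator of evening genes that peaks in the morning, differed by 2.02, and LCL1 and PIL6, the latter a phytochrome-interacting factor, each by 0.86.

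The evening complex and the PRR genes of the afternoon stood on the other side. ELF4, a part of the evening complex, was at 28.0 and 29.8 FPKM in wild type and at 1.73 and 1.83 FPKM in amiR-SEAP1 (-3.43). PRR5, a repressor of CCA1 and LHY, was at 40.3 and 39.99 FPKM against 3.80 and 3.83 FPKM (-3.10). FKF1, a blue-light receptor of the flowering pathway, was at 14.5 and 13.9 FPKM against 0.813 and 0.631 FPKM (-3.14). FKF1 thus lay under 1 FPKM in amiR-SEAP1, and ELF4 and PRR5 lay at low but measurable levels there. GI (-1.23), PRR3 (-1.22), TOC1 (-1.02), PCL1 (the evening complex member LUX, -0.89), ELF3 (-0.72) and PRR7 (-0.65) were lower as well. ZTL, a clock protein gene whose transcript is known to cycle little, differed by 0.04.

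In the FLW set the same genes did not separate the genotypes in this way. LHY was at 42.9 and 42.2 FPKM in wild type and at 42.3 and 43.7 FPKM in amiR-SEAP1, and ELF4 was at 2.18 and 1.59 against 0.882 and 1.39 FPKM. For 18 of the 22 clock genes both FLW genotypes lay nearer the AI amiR-SEAP1 libraries than the AI wild-type libraries (42.3% of all tested genes did so), and for 2 genes nearer the AI wild type. Since no label gives the hour of harvest, it and the genotype cannot be told apart within the AI set. FT, the mobile flowering signal, was at 19.9 and 20.2 FPKM in wild type and at 2.14 and 1.63 FPKM in amiR-SEAP1 (-2.87), but was at 18.8 and 17.9 against 11.6 FPKM in both amiR-SEAP1 libraries of the FLW set, so that there both genotypes resembled the AI wild type more. AT3G12320 (also named LNK3), of the LNK family that works with RVE8, was among the 15 largest increases (22.6 and 22.5 against 105 and 103 FPKM, 2.16, FLW 0.16).

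**Figure D3:**
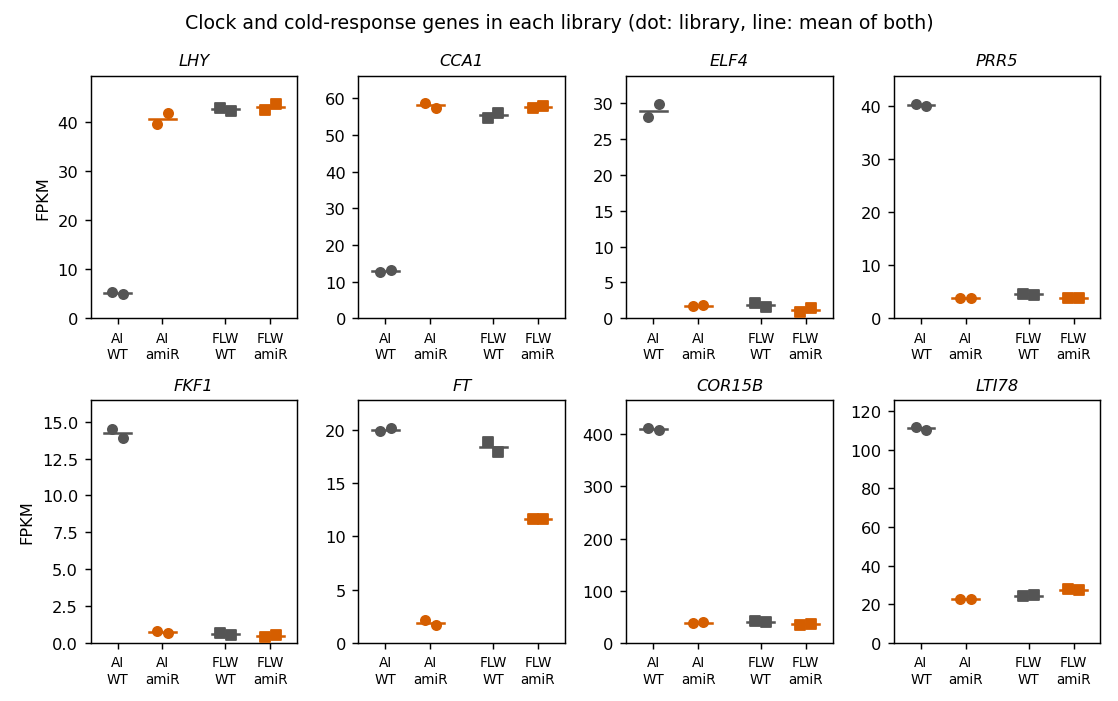
FPKM (vertical axes, from 0) of 6 clock and photoperiod genes and 2 cold-response genes in each of the 8 mRNA libraries; dots are libraries of the AI set, squares of the FLW set, lines the mean of the pair, with wild type in grey and amiR-SEAP1 in orange. Except for FT, the AI wild-type pair stands apart and the other 3 pairs lie close together: PRR5 is at 40.3 and 39.99 FPKM in the AI wild type and between 3.80 and 4.53 FPKM in the other libraries.

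Many genes of the cold, drought and abscisic acid response were lower in amiR-SEAP1 in the AI set. Of 25 tested genes 16 (64.0%, against 6.95% of all genes) were lower in amiR-SEAP1 and 1, ABF3 (0.75), was higher. The median was -0.92 against -0.09 in the FLW set. COR15B, which protects chloroplast membranes during freezing, was at 412 and 407 FPKM in wild type and at 37.4 and 39.0 FPKM in amiR-SEAP1 (-3.39). DREB1A (also named CBF3), the transcription factor that switches on such genes in the cold, was at 16.5 and 17.7 FPKM against 3.27 and 2.98 FPKM (-2.13). LTI78 (112 and 111 against 22.8 and 22.7 FPKM, -2.24) and LTI30 (-2.19) were lower too. For COR15B the FLW libraries of both genotypes lay between 34.6 and 41.0 FPKM, near the AI amiR-SEAP1 level. Over the list, both FLW genotypes lay nearer the AI amiR-SEAP1 libraries for 13 of the 25 genes (42.3% of all tested genes did so) and nearer the AI wild type for 6. COR15A (-1.51) and COR15B are close copies, as are KIN1 and KIN2, and reads may have been shared between them.

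Of 31 starch and sugar genes 12 (38.7%, against 6.95% of all genes) were lower in amiR-SEAP1 and 3 were higher. SEX1, the glucan phosphorylating enzyme that opens the starch granule, was at 40.9 FPKM in each wild-type library, against 17.1 and 17.0 FPKM in amiR-SEAP1 (-1.22, FLW -0.08). ISA3 (-1.54), CT-BMY (-1.26), AMY3 (-1.05), DPE1 (-0.69) and DPE2 (-0.66), all enzymes of the path from starch to sugar, were lower, whereas the synthases SS1 (0.08), SS2 (0.15) and SS3 (0.06) lay near 0. BMY3, a beta-amylase relative, went the other way (23.2 and 22.5 against 58.6 and 58.8 FPKM, 1.32). Of 39 photosynthesis genes 6 (15.4%, against 5.53% of all genes) were higher, 0 were lower, and 36 lay above 0 with a median of 0.18. Over all genes the median was 0.06 and the 75th percentile 0.24. RCA, the activase of Rubisco, was at 593 and 605 FPKM in wild type and at 908 and 904 FPKM in amiR-SEAP1 (0.60, FLW 0.08), and the light-harvesting gene LHB1B1 differed by 0.87. LHCB and RBCS genes have near-identical copies, so their single values are uncertain. Of the 104 genes of the chloroplast genome tested 5 (4.81%, below the 5.53% of all genes) were higher and 0 were lower, with a median of 0.26 (0.45 in the FLW set).

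Genes of scent and of late flowers were among the largest decreases. Of 11 floral terpene and scent genes 8 (72.7%, against 6.95% of all genes) were lower and 0 were higher, with a median of -1.93. CYP71B31, a cytochrome P450 gene, was at 52.8 and 53.8 FPKM in wild type and at 0.548 and 0.368 FPKM in amiR-SEAP1 (-5.22), while the FLW libraries lay between 24.7 and 25.6 FPKM in both genotypes. TPS03, a monoterpene synthase, was at 20.2 and 21.0 against 0.922 and 1.12 FPKM (-3.42, FLW 0.54). TPS21, the sesquiterpene synthase that makes caryophyllene in the stigma, was at 35.7 and 34.8 against 6.16 and 6.17 FPKM (-2.34, FLW -0.68). For TPS10 (-2.69 and -0.91), TPS14 (-2.1 and -0.90) and AT3G25810 (-1.93 and -1.09) both sets had lower values in amiR-SEAP1. The P450 genes of linalool metabolism, CYP76C3 (-1.88 and -0.09) and CYP76C1 (-1.67 and 0.07), differed past 1.5-fold in the AI set and not in the FLW set.

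SAG12, a cysteine protease used as a marker of senescence, had the largest decrease of the named genes on the log2(FPKM + 1) scale. It was at 57.4 and 60.03 FPKM in wild type and at 0.196 and 0.243 FPKM in amiR-SEAP1 (-5.61). Both FLW genotypes were higher than the AI wild type, between 98.7 and 105 FPKM. AT4G15750 (31.3 and 30.7 against 0.213 and 0.0640 FPKM, -4.82) and AT1G56100 (13.2 and 12.5 against 0.0828 and 0.0793 FPKM, -3.68) had the same layout, with FLW differences of 0.23 each. SWEET9, the sugar exporter of nectaries, was lower (57.6 and 55.7 against 15.5 and 15.1 FPKM, -1.82, FLW -0.51).

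Of 18 flavonoid genes 7 (38.9%, against 6.95% of all genes) were lower in amiR-SEAP1 and 0 higher, and all 18 differences lay below 0. BAN, the reductase that makes the tannin precursors of the seed coat, was at 8.92 and 8.19 FPKM in wild type and at 0.1004 and 0.163 FPKM in amiR-SEAP1 (-3.08), against 12.5 to 15.8 FPKM in the FLW libraries. DFR (5.26 and 4.62 against 0.377 and 0.404 FPKM) and LDOX (6.97 and 6.75 against 0.594 and 1.13 FPKM), which act just before it, each differed by -2.09. MYB11, a regulator of flavonol synthesis, was lower as well (6.28 and 6.01 against 2.23 and 2.04 FPKM, -1.19, FLW -0.24, at a locus that overlaps another gene), as was TT7, the flavonoid hydroxylase (-0.85). The early enzymes TT4 (chalcone synthase, -0.17) and F3H (-0.11) lay under the threshold. Of the 7 seed coat and ovule markers 6 were tested, and BAN, TT12 (-0.76) and STK (-0.65), an ovule identity factor, were lower while INO (0.10), of the outer integument, was not. These 6 summed to 105.3 and 97.5 FPKM in wild type and to 71.8 and 65.9 FPKM in amiR-SEAP1. In RNA from a whole inflorescence, fewer cells of a type and less RNA per cell cannot be told apart, and the part of the mix of flower stages in these decreases was not tested.

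The tapetum and mature pollen lists differed in direction in the AI set, and no label gives the stage of the flowers. Of 26 tapetum and pollen wall genes 14 (53.8%, against 5.53% of all genes) were higher in amiR-SEAP1 and 0 lower, with a median of 0.64. In the FLW set 0 were higher and 11 lower (against 3.12% of all genes), with a median of -0.52. MS1, a late regulator of the tapetum, was at 1.94 and 1.66 FPKM in wild type and at 4.72 and 4.86 FPKM in amiR-SEAP1 (1.05, FLW -0.50). MS2, which makes fatty alcohols for the pollen wall, was at 47.5 FPKM in each wild-type library, against 93.0 and 89.5 FPKM in amiR-SEAP1 (0.93, FLW -0.37). The early regulators DYT1 (0.68), TDF1 (0.78), AMS (0.84) and MYB80 (0.69) were higher, whereas the glycine-rich proteins of the pollen coat, GRP14 (-0.01), GRP16 (0.00), GRP17 (0.22) and GRP19 (0.10), were not. Summed over the list, the AI wild type held 3467.7 and 3503.3 FPKM and the AI amiR-SEAP1 libraries 4373.8 and 4410.6 FPKM, against means of 4534.3 (wild type) and 2941.9 FPKM (amiR-SEAP1) in the FLW set.

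Of 28 mature pollen genes 5 (17.9%, against 6.95% of all genes) were lower in the AI set and 0 higher, with a median of -0.21, and 8 were lower in the FLW set (against 3.12% of all genes), with a median of -0.46. PMEI2, an inhibitor of pectin methylesterase in the pollen tube, was at 31.7 and 30.7 FPKM in wild type and at 17.0 and 14.1 FPKM in amiR-SEAP1 (-0.97, FLW -0.90). VGDH1, a pectin methylesterase relative of the pollen tube, was at 139 and 141 against 91.2 and 90.2 FPKM (-0.62), a call that did not reach 1.5-fold once libraries were set to the same FPKM sum.

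**Figure D4:**
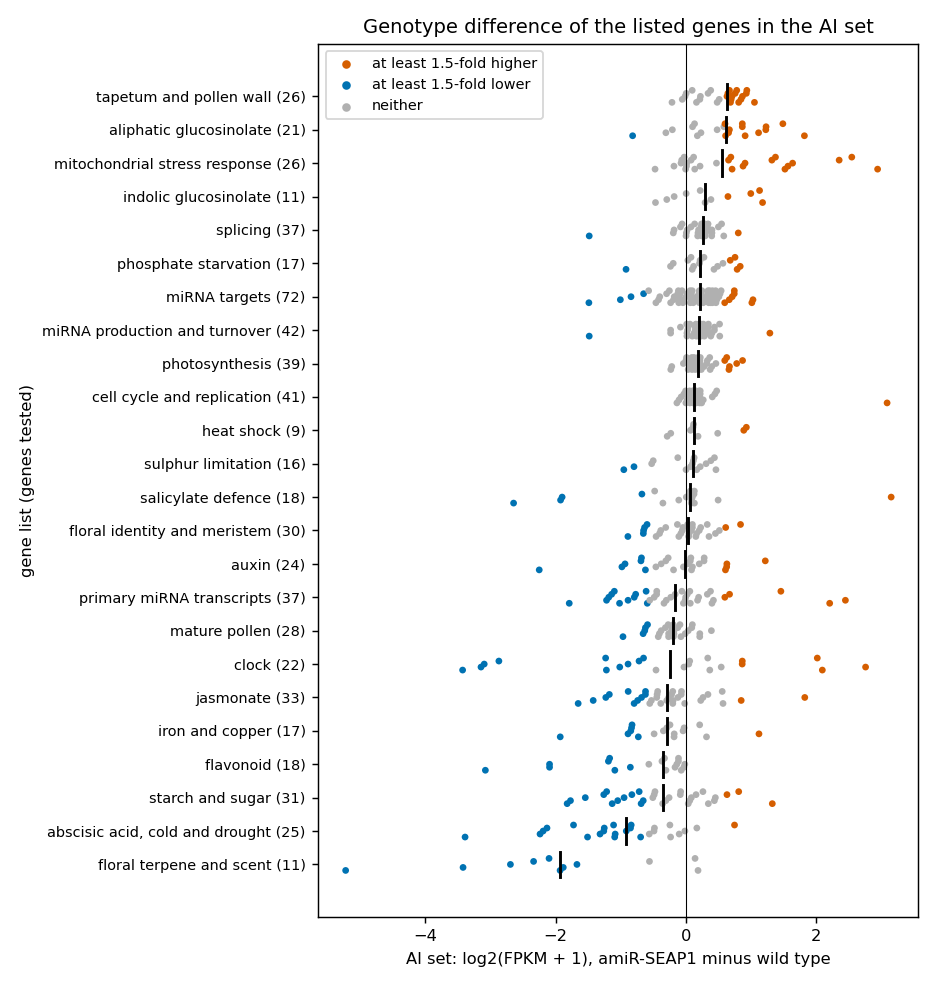
Genotype difference in log2(FPKM + 1) in the AI set (horizontal axis) of every tested gene of the 24 lists (rows, ordered by median), with genes at least 1.5-fold higher in orange, lower in blue and the others in grey; black bars are list medians. Tapetum genes (median 0.64), aliphatic glucosinolate genes (0.61) and mitochondrial stress genes (0.56) lie highest, and cold genes (-0.92) and scent genes (-1.93) lowest.

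Of 33 jasmonate genes tested 10 (30.3%, against 6.95% of all genes) were lower and 2 were higher, AOC1 and OPR3, both of jasmonate synthesis, while the others lay under the threshold. MYB57 (14.1 and 13.5 against 4.11 and 3.299 FPKM, -1.65) and MYB24 (30.1 and 26.9 against 9.47 and 10.6 FPKM, -1.42), which drive late stamen growth downstream of jasmonate, were lower, with FLW differences of -0.33 and -0.26. The signalling genes MYC2 (-0.80), JAZ1 (-1.18), JAZ5 (-0.74) and JAZ10 (-0.68) were lower too. VSP2, an acid phosphatase gene induced by jasmonate, was at 616 and 622 FPKM in wild type and at 265 and 262 FPKM in amiR-SEAP1 (-1.23, FLW -0.79). AOC1 went the other way (2.19 and 2.67 against 11.3 and 10.9 FPKM, 1.82, FLW 0.88). It has close copies, so its value is uncertain.

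On the salicylate defence list more genes were lower than higher. Of 18 tested 4 (22.2%, against 6.95% of all genes) were lower and 1 (5.56%, against 5.53%) was higher. PCC1 was at 11.0 and 11.6 FPKM in wild type and at 1.02 and 0.907 FPKM in amiR-SEAP1 (-2.64, FLW -1.63). WRKY54, a transcription factor of the response, was at 5.16 and 5.04 against 0.623 and 0.595 FPKM (-1.92, FLW -1.14), and NIMIN1, which binds the salicylate receptor NPR1, differed by -1.90. THI2.2, a thionin gene, was the 1 higher member, at 2.60 and 2.03 FPKM in wild type and at 27.8 and 28.8 FPKM in amiR-SEAP1 (3.15, FLW 0.82).

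Several genes of copper supply, picked from the lists after their values were seen, differed with opposite signs in the sets. The miR397, miR398, miR408 and miR857 families are known to be made under copper shortage and to target copper proteins, among them CSD1, CSD2 and CCS. The primary transcript of MIR408 was at 10.8 and 10.2 FPKM in the AI wild type and at 3.95 and 4.17 FPKM in AI amiR-SEAP1 (-1.18), but at 0.863 and 0.901 FPKM against 2.55 FPKM in both libraries in the FLW set (0.92). MIR397a was at 4.77 and 4.02 against 0.835 and 0.320 FPKM (-1.79, FLW 0.75). MIR397b (-1.10), MIR398c (-1.02) and MIR857 (-0.79) were lower as well, and their FLW differences were 0.88, 0.60 and 0.38, the last under 1.5-fold. These loci are short and low, and those of MIR397a and MIR408 overlap another gene.

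The targets of miR398 had the opposite signs. The laccase genes and ARPN, also on the miRNA target list, were not among its genes counted as higher or lower in the AI set. CSD1, a cytosolic copper/zinc superoxide dismutase, was at 92.4 and 94.6 FPKM in the AI wild type and at 187 and 197 FPKM in AI amiR-SEAP1 (1.03), and at 224 and 215 against 126 and 130 FPKM in the FLW set (-0.77). CSD2, its chloroplast counterpart, was at 102 and 103 against 170 and 166 FPKM (0.71, FLW -0.63). CCS, their copper chaperone, was at 19.5 and 19.2 against 40.4 and 39.6 FPKM (1.01), and its FLW difference of -0.35 was under 1.5-fold. The lowest values of these 3 genes and the highest of MIR408 were thus both in the AI wild type. SPL7, the regulator of the copper response, differed by 0.21, and the copper chaperone CCH (457 and 435 against 251 and 248 FPKM, -0.84) and the transporter COPT2 (-0.83) were lower, with FLW differences of 0.26 and 0.29, both under 1.5-fold.

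Iron genes were mixed. FER1, a ferritin that stores iron in plastids, was at 75.2 and 76.6 FPKM in the AI wild type and at 164 and 168 FPKM in AI amiR-SEAP1 (1.12), and at 219 and 216 against 151 and 147 FPKM in the FLW set (-0.54, under 1.5-fold). bHLH38, a regulator induced by iron shortage, was at 2.75 and 3.26 FPKM in the AI wild type and at 0 and 0.101 FPKM in AI amiR-SEAP1 (-1.93), and was near 0 in all FLW libraries. NAS3, of nicotianamine synthesis (-0.89, FLW 0.03), and the ferric reductase gene FRO3 (-0.85, FLW -0.23) were lower in the AI set and lay under 1.5-fold in the FLW set. Of the 17 iron and copper genes tested 6 (35.3%, against 6.95% of all genes) were lower and 1 (5.88%, against 5.53%) was higher. AT2G30766 (58.1 and 60.2 against 4.34 and 3.29 FPKM, -3.65, FLW 2.09) and AT1G47395 (38.8 and 38.5 against 3.94 and 3.09 FPKM, -3.14, FLW 1.22), which the reference does not describe, also differed with opposite signs in the sets.

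**Figure D5:**
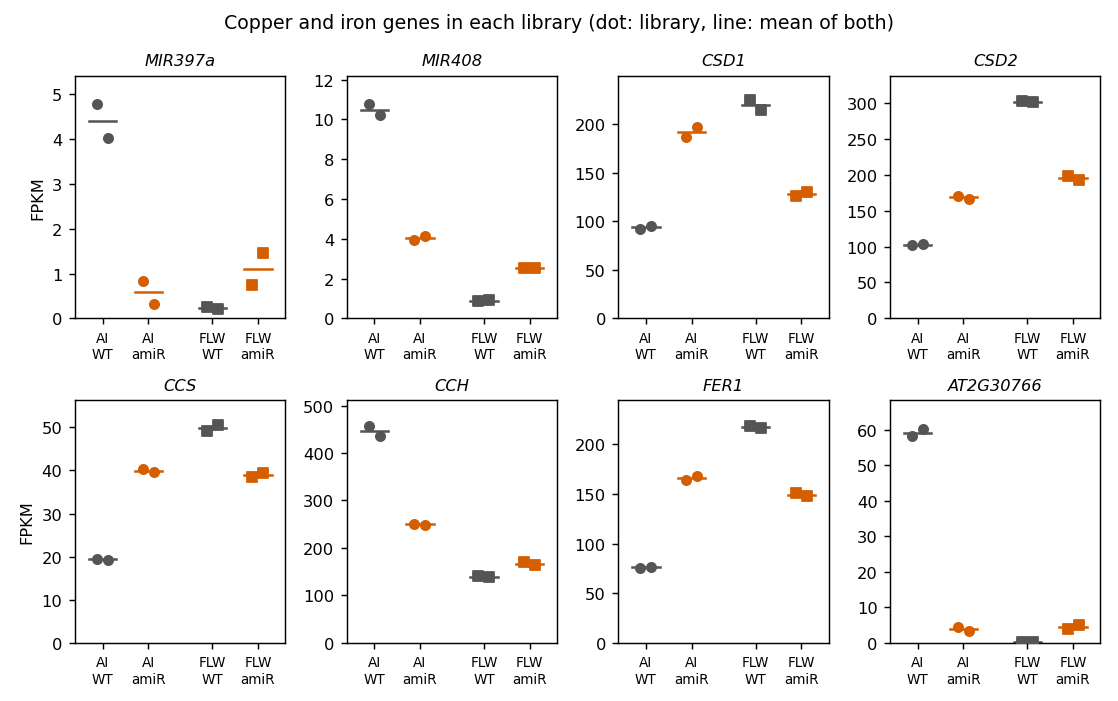
FPKM (vertical axes, from 0) of 2 copper miRNA loci, 4 copper protein genes, FER1 and AT2G30766 in each of the 8 mRNA libraries; dots are libraries of the AI set, squares of the FLW set, lines the mean of the pair, with wild type in grey and amiR-SEAP1 in orange. MIR408 is highest and CSD1 lowest in the AI wild type, and the genotypes differ in opposite directions in the sets (MIR408 -1.18 and 0.92, CSD1 1.03 and -0.77).

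The genes that make and turn over miRNAs differed little. Of 42 tested 1 (2.38%, against 5.53% of all genes) was higher and 1 (2.38%, against 6.95%) was lower. Of the 42, 38 lay above 0 with a median of 0.21 (0.10 in the FLW set), against 0.06 over all genes. This median lay under the 75th percentile of all genes (0.24) and was 0.152 with median ratio scaling and 0.248 with the same FPKM sum. Whether it differs from that of all genes was not tested. DCL1 differed by 0.22, HYL1 by 0.28, SE (SERRATE) by 0.20, HEN1, the methylase that protects miRNAs, by 0.22 and AGO1 by 0.06. The 1 higher gene was CDF2, a DOF factor also known to bind DCL1 and primary miRNAs, at 5.63 and 5.72 FPKM in wild type and at 15.4 and 15.2 FPKM in amiR-SEAP1 (1.29). Its FLW values lay between 15.2 and 16.4 FPKM in both genotypes. The 1 lower gene was EMB140, which the splicing list holds as well. Of 37 splicing genes 1 (2.7%, against 5.53% of all genes) was higher. It was AT1G28060 (also named RDM16, a relative of the spliceosome factor PRP3), at 22.8 and 22.3 against 39.8 and 40.3 FPKM (0.80, FLW 0.82). The median of that list was 0.26.

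Of the 178 primary miRNA loci matched 37 passed the filter. Of these 5 (13.5%, against 5.53% of all genes) were higher and 11 (29.7%, against 6.95%) were lower, a difference in shares that was not tested. The filter used the mean over both genotypes, and some low loci passed it only through the genotype in which they were high. MIR164a and MIR835 did so through amiR-SEAP1 and MIR397a through wild type, so these shares are not independent of the filter. MIR164a was at 0.131 and 0 FPKM in wild type and at 3.75 and 4.07 FPKM in amiR-SEAP1 (2.21), and the FLW libraries showed the same (2.28). MIR835 (0.0627 and 0.0559 against 5.13 and 4.44 FPKM, 2.45) was high in 1 of the 2 FLW amiR-SEAP1 libraries (3.43 and 0.0848 FPKM), and MIR839 was higher in the AI set (1.46) but not in the FLW set (-0.06). MIR822 (-1.22), MIR447b (-1.14) and MIR166f (-0.89) were lower. Such loci are short and low, and several overlap other genes or near-identical copies, so their FPKM are uncertain. A primary transcript also says nothing by itself of the mature miRNA.

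Most mRNAs that miRNAs target differed little. Of 72 tested 7 (9.72%, against 5.53% of all genes) were higher and 4 (5.56%, against 6.95%) were lower. Their median was 0.21, with 50 above 0, against a median of 0.06 and a 75th percentile of 0.24 over all genes. Beside CSD1, CSD2 and CCS, the higher genes were SPL2 (miR156, 34.1 and 33.0 against 64.4 and 50.1 FPKM, 0.74), GRF8 (0.74) and GRF2 (0.66) of miR396, and AFB2 (miR393, 0.59). APS4, an ATP sulphurylase of sulphate assimilation targeted by miR395, was lower (22.1 and 21.3 against 6.67 and 7.53 FPKM, -1.49, FLW -0.41). NAC6, targeted by miR164, was at 7.64 and 7.79 FPKM in wild type and at 3.25 and 3.43 FPKM in amiR-SEAP1 (-1.01, FLW -0.19). NF-YA3 (-0.84) and NF-YA5 (-0.65), of miR169, were lower too.

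The remaining lists are set against the shares of all genes, 5.53% higher and 6.95% lower. Of 30 floral identity and meristem genes 2 (6.67%) were higher, FD (0.84) and LFY (0.61), and 5 (16.7%) were lower. Among the lower ones were CAL (14.6 and 14.7 against 7.81 and 7.11 FPKM, -0.89) and TFL1 (-0.65). MAF5, a repressor of flowering outside the lists, was at 1.17 and 1.31 FPKM in the AI wild type and at 10.6 and 10.7 FPKM in AI amiR-SEAP1 (2.38), and at 11.9 and 10.9 against 2.78 and 3.02 FPKM in the FLW set (-1.66). Of 24 auxin genes 4 were higher and 6 lower. SAUR9, of the small auxin-induced RNAs, was at 5.6 and 6.09 against 0.384 and 0.492 FPKM (-2.25, FLW 0.31), and WES1, an enzyme that conjugates auxin, at 10.1 and 9.98 against 24.1 and 25.4 FPKM (1.22, FLW 0.07). Of 17 phosphate starvation genes 4 were higher, among them SPX1 (0.79), a phosphate sensor, and 1 was lower, the transporter gene PHT1;4 (-0.92). Of 16 sulphur limitation genes 0 were higher and 2 lower, AT5G26220 (also named GGCT2;1, -0.95) and LSU4 (-0.80). Of 9 heat shock genes HSP90.1 (0.93) and HSP70 (0.89) were higher, both at under 6 FPKM.

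On the log2(FPKM + 1) scale the largest increase of the named genes was that of AT2G20670, at 3.06 and 2.96 FPKM in wild type and at 41.1 and 41.3 FPKM in amiR-SEAP1 (3.39), with FLW values between 23.4 and 30.6 FPKM in both genotypes. AT2G05540 (3.25, FLW 0.08), AT4G27450 (2.81, FLW 0.14) and AT3G15450 (2.52, FLW -0.24) had the same layout, low in the AI wild type alone. AT2G03130 (0.297 and 0.0441 against 11.5 and 9.26 FPKM, 3.29, FLW 2.60) and AT3G45730 (2.53, FLW 1.82) were instead high in the amiR-SEAP1 libraries of both sets. The order of low genes depends on the scale: the ratio of mean FPKM was 13.7 for AT2G20670 and 61.03 for AT2G03130. MO1, a monooxygenase gene, was at 0.958 and 1.07 against 10.6 and 10.9 FPKM (2.54, FLW -0.10). AT4G30650 (217 and 221 against 17.0 and 16.9 FPKM, -3.61, FLW -0.51) lay high in the AI wild type alone. AT1G19960 (34.3 and 32.9 against 2.36 and 2.01 FPKM, -3.44, FLW -1.66) was the 1 gene of the 15 largest decreases that was also lower in the FLW set. AT3G08640 (-3.67) and AT5G47350 (-3.28) were low in AI amiR-SEAP1 alone, with FLW differences of 0.13 and 0.24.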

How the data were processed

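FPKM per gene and library were deposited by the authors, per the file headers. HISAT2 and the build TAIR10 are named in the submitters' processing notes. Which program, annotation and strand setting gave the FPKM is not given in the sources used here. Depth is unknown, but from the steps of low values 1 read was worth the same in all 4 AI libraries to within 1.04 times.

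Groups came from the titles and the set from the column headers. Values were used as deposited: log2(FPKM + 1), a minimum mean of 1 FPKM over the 4 AI libraries, and the difference of genotype means. No test was run, since a pair of near repeats counts as 1 sample. Calls were tested on simulated data. The members, lists and rules were chosen with earlier results of these data known. Named genes are the 15 largest increases and 15 largest decreases whose AI mean reached 5 FPKM and whose genotypes did not overlap, EMB140, and up to 4 called members of each list with the largest differences (otherwise 2), 105 genes in all; other list members were named after their values were seen. Of these 105 genes, 26 overlap another gene in the reference, among them COR15B, DREB1A, FKF1, ABCG26, CSD1, MYB24, MYB57, BMY3, FER1 and AT2G30766, and are uncertain without strand, as are NAC13, AMS, TPS14 and MIR408, which overlap too. Of 33610 gene IDs 28932 matched the RefSeq gene table of TAIR10.1, used for symbols and overlaps only. Promoter motifs and cytosolic ribosomal protein genes were planned and are not analysed here, and the small RNA libraries are not used here. Alternatives were the pseudocount, the filter, the scaling, the fold and leaving out each library. Versions were Python 3.11.15, pandas 2.3.3, NumPy 2.4.6 and matplotlib 3.10.9.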

Additional observations from a re-analysis of the deposited data

Results flagged for a closer look

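In 5 named genes the genotypes differed by at least 1.5-fold in opposite directions in the sets, with no overlap of their libraries in either. The difference between the sets was not tested, because each holds 1 sample per genotype. MAF5 was higher in amiR-SEAP1 in the AI set (2.38 in log2(FPKM + 1)) and lower in the FLW set (-1.66). CSD1 was likewise higher in the AI set (1.03) and lower in the FLW set (-0.77). MIR397a was lower in the AI set (-1.79) and higher in the FLW set (0.75). AT2G30766 (-3.65 and 2.09) and AT1G47395 (-3.14 and 1.22) were lower in the AI set and higher in the FLW set.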

How the results depend on the processing

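No paired analysis was possible because the values come from no test and each pair of libraries counts as 1 sample. Within replicate number 3 or 4 alone no named difference moved by more than 0.23, but GSTF9 and TFL1 lay under 1.5-fold with number 3 alone. GSTF9 also did so with median ratio scaling, and VGDH1 with quantile normalization and with the same FPKM sum. The 105 named genes kept their direction under all 11 alternatives, but their size depends on the pseudocount, with changes of up to 2.52 at 0.1 FPKM and 2.01 at 5 FPKM. With a pseudocount of 0.1 FPKM, 458 genes were at least 2-fold higher and 17.3% of the lower genes were also lower in the FLW set. With a pseudocount of 5 FPKM, 409 genes were higher and 765 lower at 1.5-fold and 86 and 181 at 2-fold, 10.6% of the lower genes recurred, and 15 named genes came to lie under 1.5-fold, among them CYP79B3, MS1, HSP90.1, HSP70, SPX3, FD and TFL1. With a minimum mean of 5 FPKM, which tests fewer genes, 685 were higher at 1.5-fold, and 151 higher and 293 lower at 2-fold. The other alternatives kept these counts within 1.5 times. Leaving out 1 library gave 1113 to 1202 higher and 1388 to 1469 lower genes at 1.5-fold, 222 to 255 and 451 to 507 at 2-fold, with up to 17.7% of the higher and 13.1% to 13.9% of the lower genes recurring in the FLW set; STK lay under 1.5-fold without replicate 3 of wild type, and both STK and GSTF9 without replicate 4 of amiR-SEAP1. Of 24 list medians, that of auxin (-0.01) changed sign with the same FPKM sum (0.035) and ran from -0.058 to 0.003 when 1 library was left out, and that of floral identity (0.03) with median ratio scaling (-0.028). The median of mitochondrial stress genes (0.56) was 0.336 and 0.348 without replicate 3 and 4 of amiR-SEAP1 and 0.256 with a pseudocount of 5 FPKM, and that of tapetum genes (0.64) was 0.402 with the latter. Leaving out a library also applied the minimum mean anew, so the genes tested could differ there. Scaling moved the median of all genes to between 0.002 and 0.099. The values cannot show differences between plants, and low genes are the least certain.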

Other observations

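Genes at 5 FPKM or more in 1 genotype of the AI set and under 1 FPKM in the other were set against the FLW set. In 21 genes both wild-type libraries lay at 5 FPKM or more and both amiR-SEAP1 libraries under 1 FPKM, and 2 of these were also at least 1.5-fold lower in amiR-SEAP1 in the FLW set. In 9 genes the reverse held, and 8 of these were also at least 1.5-fold higher in the FLW set. Of all 20568 tested genes, 3.12% were lower and 1.87% higher in the FLW set by the rule that also asks for no overlap. By that rule 14.5% of the genes at least 2-fold lower in the AI set and 31.6% of those at least 2-fold higher recurred. The rule used the AI values, and whether the shares differ was not tested.

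In 3 genes, chosen after their values were seen, the libraries of the amiR-SEAP1 pair disagreed completely. bZIP2 (AT2G18160) was at 38.7 FPKM in replicate 3 and listed at 0 in replicate 4. The FLW wild-type pair disagreed in the same way for bZIP2, at 55.4 FPKM in replicate 1 and 0.0007 FPKM in replicate 2. ATCTH (AT2G25900) was at 0.0376 FPKM in replicate 3 and at 40.4 FPKM in replicate 4, and AT4G34588 at 43.4 and 0.0014 FPKM. None of the 3 was counted as higher or lower, since the genotypes overlapped.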
